A study of Mus musculus with 6 samples.

Results

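The let-7 family on this microarray was made up of 9 mature strands, mmu-let-7a, mmu-let-7b, mmu-let-7c, mmu-let-7d, mmu-let-7e, mmu-let-7f, mmu-let-7g, mmu-let-7i and mmu-miR-98, written without the species prefix from here on. They were chosen by name, as the probes in the spot files and in the deposited series table whose names equal these, and all 9 were found among the 599 mouse miRNA probes of each. The samples were 6 cultures of arteriolar smooth muscle cells (aSMCs) of mouse kidney, a primary line at passage 7 on a mixed 129Sv/C57Bl6 background, of the renin lineage. Renin is the protease that starts the angiotensin cascade. In the 3 forskolin cultures, 10 µM forskolin (it activates adenylyl cyclase) and 100 µM IBMX (it slows the breakdown of cyclic AMP) were present for 24 h. A further 10 µM forskolin followed 30 min before these cultures were harvested. No treatment, and no vehicle, is named for the 3 control cultures. The series title gives induction of renin as the aim of the treatment. The design text calls the cultures independent in growth and harvest, but a single primary line is named for all, so the spread between them is that of cultures.

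let-7 miRNAs are among the most conserved animal miRNAs. Their precursors are held back by the RNA-binding protein LIN28 in stem cells, and the mature strands accumulate as cells differentiate and repress growth-promoting mRNAs such as those of the Ras proteins, Myc and Hmga2. In vascular smooth muscle the family has been studied mostly as a restraint on proliferation. A miRNA finds its targets chiefly through the seed, the bases near its 5′ end, so strands with the same seed share many targets.

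The target sequences of the 9 probes are shown because the members differ from each other at few bases. Each matched the RefSeq mature sequence of its -5p strand letter for letter (9 of 9), and each is 22 bases long. Capitals mark the seed, bases 2 to 8.
let-7a: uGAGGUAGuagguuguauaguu
let-7b: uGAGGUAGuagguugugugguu
let-7c: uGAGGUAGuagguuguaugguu
let-7d: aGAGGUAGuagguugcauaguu
let-7e: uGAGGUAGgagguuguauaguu
let-7f: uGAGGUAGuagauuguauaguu
let-7g: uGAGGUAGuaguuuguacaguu
let-7i: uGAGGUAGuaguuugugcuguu
miR-98: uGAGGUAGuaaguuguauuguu

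All 9 members carried the same seed, GAGGUAG, and no other probe of the array had it at bases 2 to 8. With positions counted from 1 at the 5′ end and the base of let-7a written first, let-7c differed from let-7a by A19G, let-7e by U9G and let-7f by G12A. let-7b differed by A17G and A19G, let-7d by U1A and U16C, let-7g by G12U and U18C, and miR-98 by G11A and A19U. let-7i was the farthest from let-7a, with G12U, A17G, U18C and A19U. Of the 36 pairs of members, 4 differed by 1 base and 10 by 2 bases, and let-7d and let-7i, the most distant pair, differed by 6. The nearest relatives of miR-98 were let-7a and let-7c, at 2 differences each. Binding of a probe to the miRNA of another member was not tested.

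The 9 strands lie in 12 hairpins on 7 chromosomes (RefSeq sequences, GRCm38.p6). miR-98 (chrX:151913229-151913250, plus strand) and let-7f from Mirlet7f-2 (chrX:151912353-151912374, plus strand) are neighbours within the bounds of the protein-coding gene Huwe1, a ubiquitin ligase. On chromosome 13, minus strand, let-7a (chr13:48538239-48538260), let-7f (chr13:48537889-48537910) and let-7d (chr13:48536078-48536099) form 1 cluster. let-7c (chr15:85706616-85706637) and let-7b (chr15:85707325-85707346) lie together within a long non-coding RNA gene, Lncppara. The hairpin of let-7e (chr17:17830366-17830387) lies beside Mir99b and Mir125a and within the bounds of Spaca6. let-7g (chr9:106178846-106178867) is within the bounds of Wdr82. let-7i (chr10:122985698-122985719, minus strand) had no other miRNA hairpin within 10 kb. The further copies of let-7a and let-7c lie beside Mir100 on chromosome 9 and beside Mir99a on chromosome 16. Since let-7a, let-7c and let-7f each come from more than 1 hairpin, their probes sum over loci.

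Each sample was read in 1 dye, forskolin 1 and 3 and control 2 in Cy5, and forskolin 2 and control 1 and 3 in Cy3. Detection required a 5-spot mean more than 3 SDs (of the empty spots) above the empty-spot mean, and 167 probes detected in every sample of at least 1 group were tested. All 9 members were detected in all 6 samples, as were 151 probes in total. The forskolin samples had 175, 585 and 197 detected probes, against 162, 166 and 225 in the control samples, so that nearly every probe cleared the threshold in forskolin 2. Control 2 was dim, with a summed probe signal of 307520 over the empty spots, against 648626 to 783646 in the other 5 samples. The smooth muscle markers miR-143 and miR-145 were detected in 6 of 6 samples, at 12.54 ± 0.45 and 12.69 ± 0.22 in forskolin cultures and 13.04 ± 0.04 and 13.12 ± 0.14 in control cultures (log2 intensity, SD, n = 3 each). No marker on the endothelial (2 probes), kidney epithelial (7) or blood (5) lists was detected in all 6 samples or in as many as 2 control samples, but the epithelial miR-192 and miR-194 were detected in 3 forskolin samples and 1 control sample each. The cutoff differed between samples. Over the empty spots, miR-192 read 21.5 in forskolin 1, where it was detected, and 27.5 in control 1, where it was not. For miR-194 the values were 21.6 (detected) and 29.4 (not detected). Of the 3 neural probes, miR-128, which is not restricted to neurons, was detected in all 6. The summed signal of the epithelial list ran from 45.9 to 319.9 in forskolin samples and from 15.2 to 321.7 in control samples, and its part in any value below was not tested.

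let-7 probes were among the brightest of the array. In order of the mean level of the control samples, let-7a ranked 4, let-7c 5, let-7d 6, let-7f 7, let-7b 11, let-7e 15, let-7i 17, let-7g 25 and miR-98 65 of 599 probes. Among the 10 brightest probes, 5, 5 and 6 were members in forskolin samples 1 to 3, and 4, 5 and 4 in control samples 1 to 3. The 9 probes held 25, 24.7 and 32.1% of the summed signal over the empty spots in forskolin samples 1 to 3, against 22.7, 28.2 and 19.8% in control samples 1 to 3. In the deposited table the shares were 24.6, 25.6 and 28.8% in forskolin samples and 24.1, 25.9 and 23.8% in control samples. Probes bind with different strength, so ranks and shares describe signal and not numbers of molecules. In cultures of many cells, a lower level in every cell and fewer cells with the miRNA cannot be told apart.

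Levels are given below as log2 intensity after background correction (normexp, offset 50) and quantile normalization between the 6 samples. In that scale a probe of the same rank in different samples has the same value, which is why identical values recur among the brightest probes. let-7a, the brightest member, was at 14.72, 14.93 and 14.93 in forskolin samples 1 to 3 and at 14.72 in each of the control samples. Its rank was 4, 3 and 3 in forskolin samples against 4 in each control sample, so the groups touched at the value of forskolin 1. let-7c, which differs from it by 1 base, was at 14.61, 14.72 and 14.72 in forskolin samples, against 14.61, 14.61 and 14.47 in control samples. The 2 control samples at 14.61 equalled forskolin 1, and the groups met there as well.

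let-7b was at 14.29, 14.36 and 14.52 in forskolin samples and at 14.17, 14.29 and 14.10 in control samples. It was higher in 3 of 3 pairs of the same number, by 0.12, 0.06 and 0.42, with forskolin 1 level with control 2. let-7d was at 14.25, 14.52 and 14.47 in forskolin samples and at 14.47, 14.52 and 14.36 in control samples. let-7f was at 14.47, 14.47 and 14.61 in forskolin samples, against 14.52, 14.47 and 14.29 in control samples. For these last 2 members the groups lay across each other.

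let-7e was the most variable of the bright members in forskolin cultures. It was at 13.30, 14.01 and 14.29 in forskolin samples and at 13.69, 13.74 and 13.80 in control samples. Forskolin 1 lay below every control sample and the other two forskolin samples above every one, with an SD of 0.51 in forskolin cultures against 0.06 in control cultures. let-7g was at 13.12, 13.19 and 13.40 in forskolin samples and at 12.99, 13.30 and 13.06 in control samples. let-7i was at 13.59, 13.26 and 13.59 in forskolin samples, against 13.59, 13.59 and 13.74 in control samples, and it was higher with forskolin in none of the 3 pairs.

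miR-98 stood apart from the rest in level and in spread. It was at 10.03, 11.54 and 12.32 in forskolin samples and at 9.68, 10.29 and 10.29 in control samples. Its rank among 599 probes was 66, 43 and 34 in forskolin samples, against 71, 61 and 61 in control samples. Forskolin 2 and 3 lay above all control samples, while forskolin 1 lay between control 1 and the other two, so the groups overlapped. The means were 11.30 ± 1.17 in forskolin cultures and 10.08 ± 0.35 in control cultures (SD, n = 3 each).

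**Figure D1:**
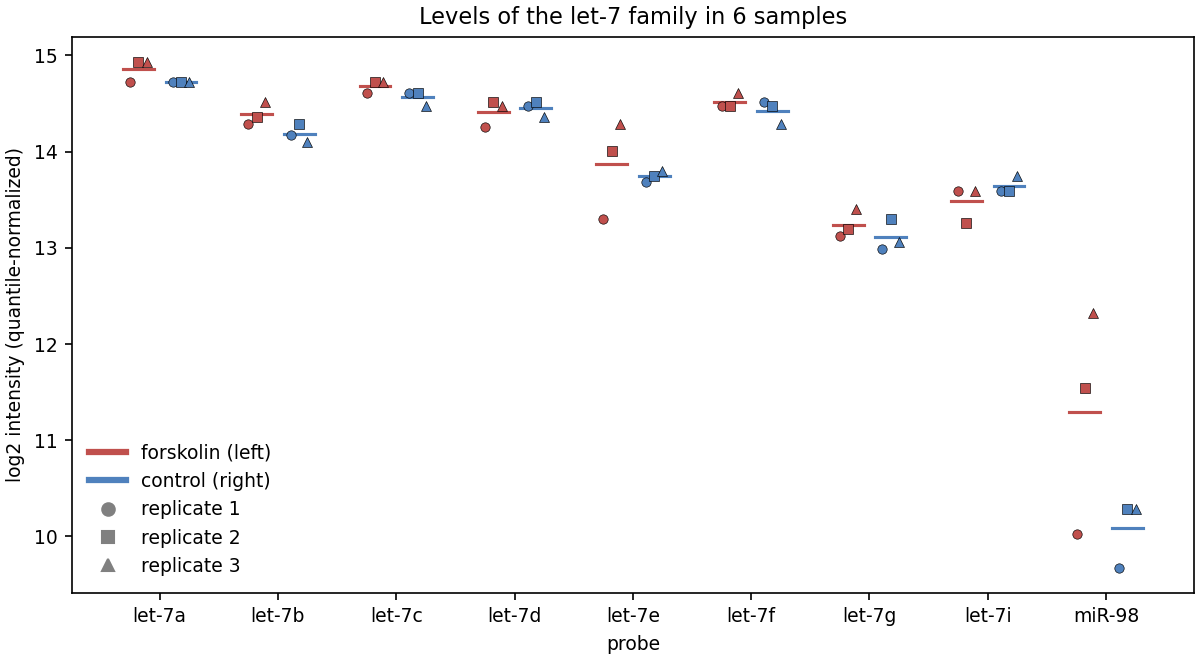
Log2 intensity after quantile normalization (vertical axis) of the 9 let-7 probes (horizontal axis) in forskolin samples (red, left) and control samples (blue, right), with symbols for the replicate number and bars for the group means of 3 samples. The 8 let-7 probes lie between 12.99 and 14.93 in every sample, and miR-98 runs from 9.68 to 12.32, highest in forskolin 3.

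The comparison asked whether let-7 strands differ after forskolin and IBMX. None of the 9 members passed an adjusted p of 0.05 in the limma fit with terms for treatment and dye (Benjamini-Hochberg over 167 probes), where 10 of all tested probes, or 5.99%, did. Of those 10, 4 were higher with forskolin, 2.4% of the probes tested. No member reached an unadjusted p under 0.05 either, which 32 of the 167 probes did. Fitted log2 fold changes, forskolin over control, were positive for 7 members and negative for let-7d and let-7i, as 80 of 167 tested probes were positive. The median over the members was 0.12, beside -0.01 over all tested probes. The groups overlapped or touched for every member, while they stood apart for 39 tested probes (23.4%).

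For the 8 members other than miR-98 the fitted changes were small. They ran from -0.20 for let-7i to 0.17 for let-7b, with standard errors (SE) of 0.20 to 0.30 and adjusted p-values from 0.698 to 0.962 in limma. The 95% intervals of these 8 changes together spanned -0.70 to 0.88, set by let-7i at the low end and let-7e at the high end. let-7a changed by 0.16 with an interval from -0.31 to 0.63. That of let-7c was 0.12 (-0.35 to 0.59) and that of let-7f 0.07 (-0.41 to 0.54). A p above the threshold does not show equal levels.

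miR-98 had the largest fitted change of the family, a log2 fold change of 1.22, or 2.33-fold, with an SE of 0.60 and an interval from -0.20 to 2.64. Its adjusted p was 0.346 in limma, and its unadjusted p 0.0809. Samples of the same number deviated together from their group means (correlations of 0.397, 0.473 and 0.359), so a fit blocked on replicate number was set beside it. With block and dye term miR-98 rose at an adjusted p of 0.000811, 1 of 30 probes past the threshold (18%). In that fit, with 1 residual degree of freedom, limma gave every probe an SE of 0.30, whereas the residuals of miR-98 alone correspond to an SE of 0.73. Once the dye term was dropped from the blocked fit, its limma adjusted p was 0.0710, where 24 probes passed (14.4%). The other 8 members stayed at adjusted p-values of 0.844 or above with block and dye term.

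The change of miR-98 differed from pair to pair. It was 0.35 in pair 1, 1.26 in pair 2 and 2.03 in pair 3 on the normalized log2 scale, higher in 3 of 3 pairs, as were 42 of the 167 tested probes (25.1%). No member was lower in 3 of 3 pairs, as 43 tested probes were (25.7%). Pairs 1 and 3 had the same arrangement of dyes and differed by 1.68, a gap exceeded by 5 of the 167 tested probes, for which the median gap was 0.39. Within Cy5, the mean of forskolin 1 and 3 lay 0.88 above control 2, and within Cy3, forskolin 2 lay 1.56 above the mean of control 1 and 3. Without forskolin 3 the fitted change of miR-98 was 0.78 (adjusted p = 0.498), and without forskolin 1 it was 1.76 (adjusted p = 0.0597, limma in each case).

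**Figure D2:**
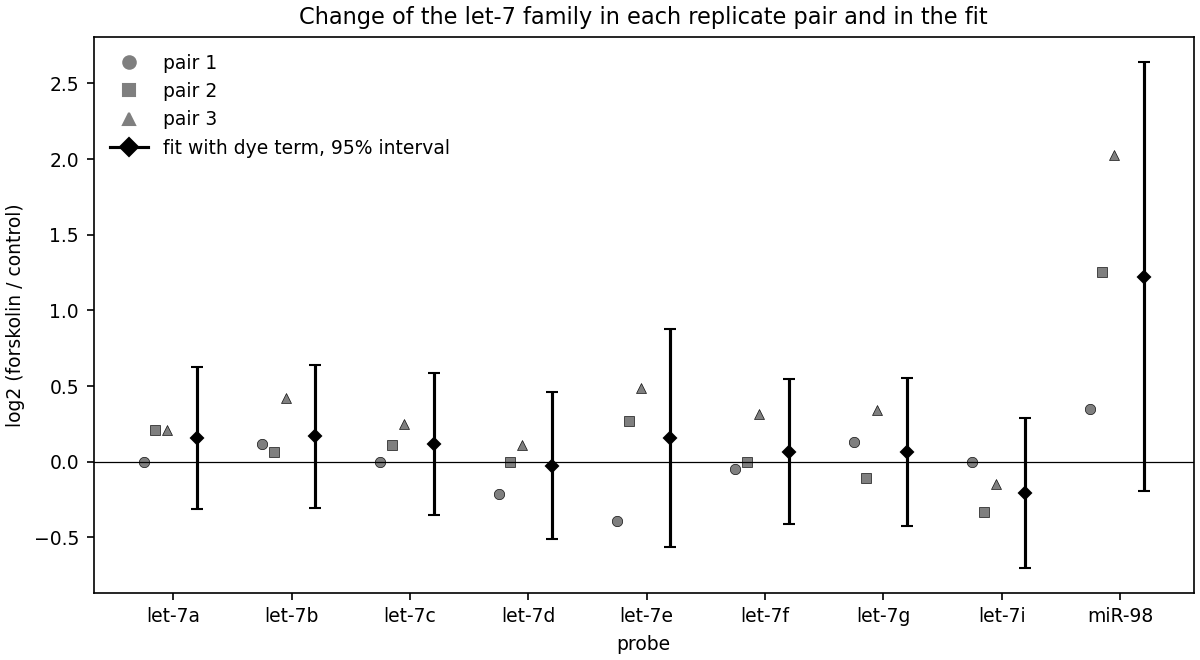
Log2 ratio of forskolin to control (vertical axis) for each let-7 probe (horizontal axis), in each of 3 pairs matched by replicate number (grey) and in the limma fit with a dye term (black diamond, bars for the 95% interval). Every interval spans 0, and the pair values of miR-98 spread from 0.35 to 2.03.

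The pair values of the other members moved in part together. The median over the 9 members was 0 in pair 1, 0.06 in pair 2 and 0.32 in pair 3, against 0, 0 and -0.04 for all tested probes. In pair 3, 8 members were higher and let-7i was lower, by -0.15. In pair 1, 3 members were higher, 3 level and 3 lower, with let-7e lowest at -0.39. In pair 2 let-7i was lowest, at -0.33, and let-7e reached 0.27. Thus let-7e was lower in pair 1 and higher in pairs 2 and 3, a difference of 0.88 between pairs 1 and 3, and only let-7b and miR-98 had all 3 pairs in one direction. Among all tested probes, 85 had (50.9%).

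The authors' deposited table, scaled in a way not given in the sources used here, was set beside these values. miR-98 read 993, 2503 and 6037 in forskolin samples 1 to 3, against 834, 1183 and 1545 in control samples 1 to 3, so that its log2 change per pair was 0.25, 1.08 and 1.97. There too forskolin 1 lay within the control range and forskolin 2 and 3 above it. let-7e read 11781, 15417 and 18346 in forskolin samples and 13085, 14289 and 12990 in control samples, with forskolin 1 again below every control sample. let-7a read 26109, 26760 and 27974 in forskolin samples, against 28471, 28832 and 29517 in control samples. In these values let-7a was lower in every forskolin sample than in any control sample, by a mean of -0.10 ± 0.02 on the log2 scale over pairs (SD, n = 3), whereas on the quantile scale it was level or higher in every pair, and quantile normalization of the deposited values gave it a fitted change of 0.16. The reverse held for let-7b and let-7g, whose forskolin values all lay above their control values there. How many of all tested probes stood apart in the deposited values was not counted, so the separation of these members has no share beside it. The median deposited change over all tested probes was itself 0, -0.05 and -0.08 in pairs 1 to 3. That of let-7a was -0.12, -0.11 and -0.08, so it was level with that median in pair 3. let-7b read 21500, 21571 and 24778 in forskolin samples, against 20333, 20879 and 20281 in control samples. let-7g read 9387, 10702 and 10520 in forskolin samples and 8267, 8616 and 8801 in control samples, higher in 3 of 3 pairs by 0.25 ± 0.07 (SD, n = 3), and the fit on this table after quantile normalization gave it a change of -0.0028 (limma adjusted p = 0.997).

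Spot values without scaling differed more between samples. Spot intensity of miR-98 minus the empty spots averaged 1013, 3666 and 6085 in forskolin samples 1 to 3 and 1042, 309.1 and 3124 in control samples 1 to 3. Control 3 lay above forskolin 1 and close under forskolin 2, so the groups overlapped. In pair 1 that was a log2 change of -0.04, with 2 of 5 spots higher, in pair 2 one of 3.57 and in pair 3 one of 0.96, each with 5 of 5 spots higher. Over all tested probes the median unscaled change was -0.39, 2.75 and -1.27 in pairs 1 to 3, so miR-98 lay above that median in each pair. Over the 9 members the median was 0.20, 1.21 and 0.76. Against that median miR-98 lay below in pair 1 and above in pairs 2 and 3. The 5 spots of miR-98 had an SD of 0.13 to 0.41 on the log2 scale within a sample.

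The 5 spots of let-7f had an SD of 0.10 or less (log2) in 4 samples, but of 0.39 in forskolin 2 and 0.79 in control 2. In those samples 1 spot, in row 116 and column 12, read 16129.6 in forskolin 2 and 4402.2 in control 2, against 28568.3 to 30316.5 and 13325.6 to 15692.3 for the other 4 spots. The spot was low at the same place in samples of opposite dye. Leaving out spots over 1 log2 unit from the others of their probe, an alternative chosen after seeing the data, removed it in control 2 and gave let-7f a change of 0.04 (limma adjusted p = 0.942), against 0.07 with all spots.

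**Figure D3:**
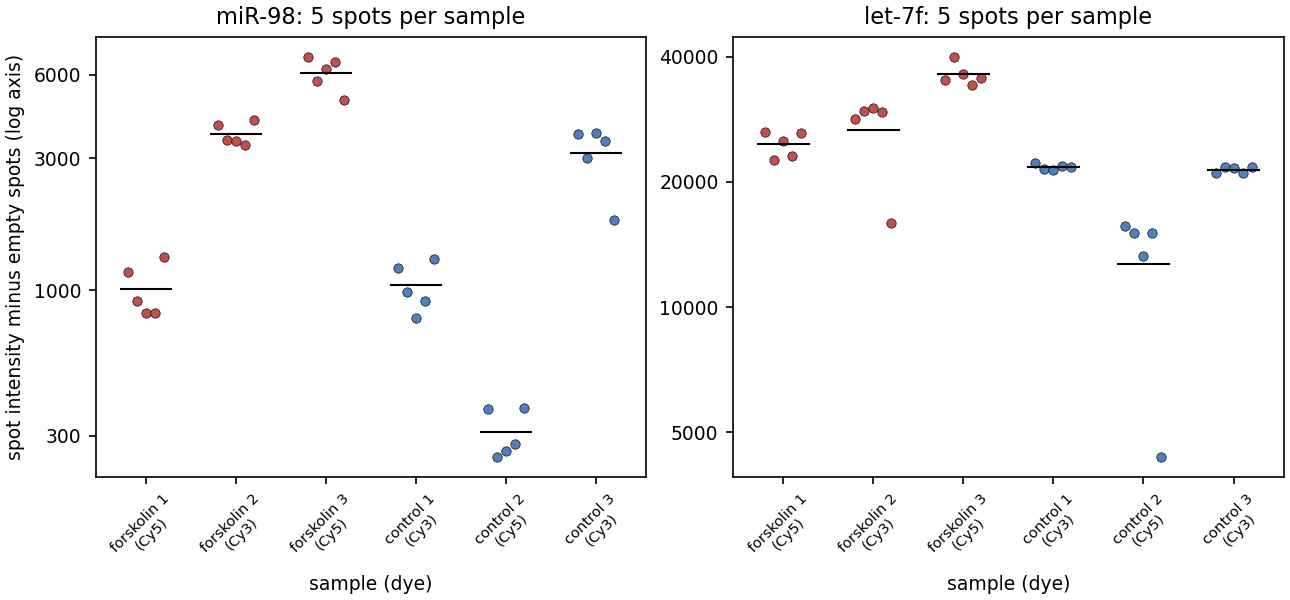
Intensity of the 5 spots of miR-98 (left) and let-7f (right) minus the mean of the empty spots (vertical log axis) in each sample (horizontal axis, dye in brackets), forskolin in red, control in blue, black bars for the means. Control 2 is the dimmest sample for miR-98 at a mean of 309.1, and let-7f has 1 low spot in forskolin 2 and control 2.

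let-7f and miR-98 come in part from 1 gene cluster on the X chromosome, and their difference within a sample does not depend on a common scaling factor. Quantile normalization is not such a factor, and the difference varied with the processing of the values, as given below. miR-98 minus let-7f was -4.44, -2.92 and -2.29 in forskolin samples and -4.84, -4.18 and -4.00 in control samples on the normalized log2 scale. Forskolin 2 and 3 were above all control samples, and forskolin 1 was below 2 of them. The means differed by 1.12 (-3.22 ± 1.11 in forskolin cultures and -4.34 ± 0.44 in control cultures, SD, n = 3 each), with p = 0.3 in a two-sided exact permutation test over samples, in which 0.1 is the smallest p possible. With spots minus empty spots the difference was 0.82 (exact permutation p = 0.6). It was 1.18 in the deposited table (exact permutation p = 0.2). With 3 samples a group this test cannot reach the threshold, so its p-values decide nothing. It also leaves the pairing by number unused, and the difference was singled out after its values were seen. Within pairs 1 to 3 the difference was 0.40, 1.26 and 1.71 on the normalized scale, 0.34, 1.33 and 1.86 in the deposited table, and -0.23, 2.50 and 0.20 with spots minus empty spots.

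Signs of the small changes depended on how arrays were scaled. Relative to the median of all tested probes, which lay at -0.01 with quantile normalization, 7 members were positive, and 4 were with cyclic loess (let-7b, let-7e, let-7g and miR-98). With arrays scaled to the 75th percentile, to the median of detected probes or not at all, that median was 0.31, -0.24 and 0.48, and all 9 members lay above it, let-7i by 0.15 and let-7g by 0.55. miR-98 lay 1.06 to 1.42 above the median of all tested probes under these and the other scalings, and 1.24 above it with quantile normalization. None of the 9 passed the threshold under any of these scalings.

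**Figure D4:**
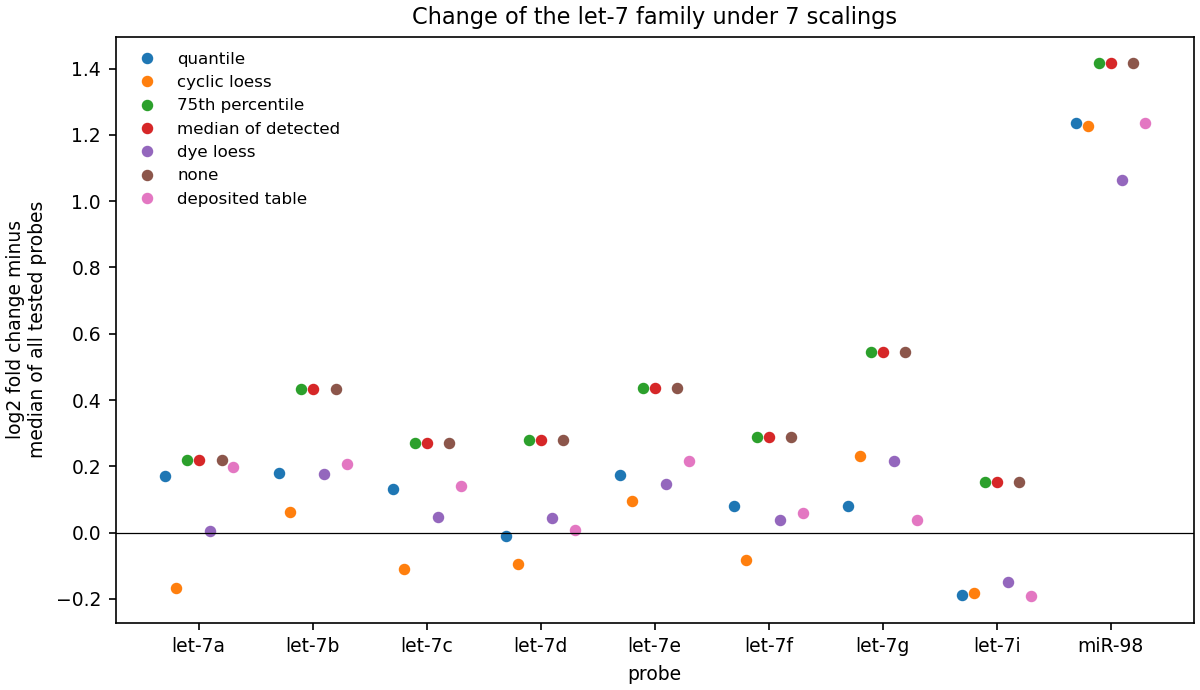
Fitted log2 fold change of each let-7 probe minus the median of all tested probes (vertical axis) under 7 ways of scaling the arrays (colours). miR-98 lies between 1.06 and 1.42 under all 7, and let-7i lies below 0 with quantile normalization, cyclic loess, dye loess and the deposited table, and above 0 with the other 3.

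Passenger strands, the partner strands of the let-7 hairpins that are mostly degraded, were near background except for let-7d*. Probes for 7 of 10 listed passenger strands were on the array and 3 were tested, with none past the threshold. let-7d* (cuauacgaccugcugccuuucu, 22 bases), shown as the passenger strand with the highest level, was at 8.72, 9.29 and 9.41 in forskolin samples and at 8.65, 9.18 and 8.72 in control samples. It was higher in 3 of 3 pairs, by 0.07, 0.11 and 0.68, and limma fitted a log2 difference of 0.24 with an SE of 0.28 (adjusted p = 0.75). let-7d itself, the other strand of the same hairpin, had a fitted change of -0.03. let-7a*, whose target sequence also fits the passenger strand of Mirlet7c-2, had -0.10, and let-7b* had 0.05. The other passenger strands, let-7c-1*, let-7f*, let-7g* and let-7i*, were detected only in forskolin 2, the sample in which nearly every probe cleared the threshold.

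The 5 listed partners of let-7 loci, miR-99a, miR-99b, miR-100, miR-125a-5p and miR-125b-5p, could all be tested, and none passed the threshold. miR-100, which shares a locus with Mirlet7a-2, was at 9.87, 9.92 and 9.48 in forskolin samples and at 10.15, 10.50 and 10.19 in control samples, with groups that did not overlap. It was lower in 3 of 3 pairs, and limma fitted a log2 difference of -0.53 with an SE of 0.24 (adjusted p = 0.306). miR-99b and miR-125a-5p, neighbours of let-7e, had -0.32 and 0.02, and the spots of miR-99b scattered in forskolin 3 and control 3 (SD 1.03 and 1.41, log2). miR-99a, neighbour of Mirlet7c-1, had 0.14, and its spots also scattered in forskolin 3 and control 3 (SD 0.86 in each, log2). miR-125b-5p, whose genes lie farther along from let-7a and let-7c genes, had -0.38. The median of the 5 was -0.32, against 0.12 for the 9 let-7 members and -0.01 for all tested probes.

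Among the members, deviations from each probe's mean over the 6 samples correlated positively in 28 of 36 pairs and negatively in 8, and each of those 8 involved let-7i. The share of positive pairs among all tested probes was not computed, so this count has none beside it. miR-98 was closest to let-7a (r = 0.945) and let-7e (r = 0.856), and let-7b closest to let-7c (r = 0.878), which differs from it by 1 base. let-7b and let-7g, at 4 differences, had r = 0.865, and let-7a and let-7f, at 1 difference, had r = 0.511. On this scale let-7a took only the values 14.72 and 14.93, a step from rank 4 to rank 3. In the deposited values let-7a was lower in every forskolin sample than in any control sample, and its correlation with miR-98 was not computed there. let-7i correlated at -0.18 with let-7g, its nearest sequence. Of 158 other tested probes, those most like the mean of the 9 members were miR-374 (r = 0.978), miR-574-5p (0.947), let-7d* (0.908), miR-26b (0.904) and miR-196b (0.904). Those most like miR-98 alone were miR-374 (r = 0.986), miR-342-3p (0.943), miR-26b (0.934), miR-196b (0.924) and miR-467a (0.888). The probes most like the mean of the 8 members without miR-98, a list added after the values were known, were miR-574-5p (r = 0.997), miR-374 (0.911), let-7d* (0.898), miR-467a (0.846) and miR-805 (0.831). None of the probes named here passed the threshold in limma with the dye term alone. With replicate block and dye term miR-196b did at an adjusted p of 1.17e-06, and miR-26b and miR-342-3p did at 0.0461 each (limma). In that fit 30 of 167 tested probes passed (18%), and every probe was given an SE of 0.30. The SE of miR-196b was 0.92 with the dye term alone (limma adjusted p = 0.379). All such correlations describe 6 samples that share a pair of dyes and 1 scaling.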

How the data were processed

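Each sample's RNA was size-selected, tailed, tagged, stained with Cy3 or Cy5 and hybridised by a service provider, per the labels' protocols. The spot files hold an intensity per spot in 1 dye, with no background subtracted, per the file headers. In the series table the deposited values are 1 intensity for each miRNA, scaled by the authors in a way not given in the sources used here. Its log2 values correlated at 0.996 or above across tested probes with spots minus empty spots.

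Groups and replicate numbers came from the sample titles. Spots were corrected by normexp (offset 50), averaged over the 5 spots of a probe and quantile-normalized (limma 3.58.1, R 4.3.3). The test was lmFit and eBayes on 167 probes with treatment and dye, Benjamini-Hochberg adjusted, two-sided. It was also run on simulated arrays with known changes. Those had no dye or replicate effect on single probes, so that run cannot show how the test behaves under such effects. The labels give no meaning for shared numbers. The pairing rests on the correlation of deviations, above 0.1 in all 3 pairs. Forskolin 2 and control 2 also shared a low let-7f spot, and the spots of miR-99a and miR-99b scattered in both forskolin 3 and control 3. Whether samples of the same number shared an array was not tested. The members and the lists (passenger strands, cluster partners, smooth muscle, endothelial, kidney epithelial, blood, neural) were chosen with earlier results of these data known. The rule named all members, passenger strands and partners, the 5 probes most like the family and like miR-98, and up to 3 markers per list. let-7f spots and the miR-98 minus let-7f difference were singled out after seeing their values. The alternatives changed the scaling, background, filter, spot summary, covariates and samples. Sequences are from the spot files and RefSeq. Signal over background and the number of arrays limit the precision.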

Additional observations from a re-analysis of the deposited data

How the results depend on the processing

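Across 24 alternatives the count of let-7 members past the threshold stayed at 0 except with the replicate block and dye term, where it was 1 (miR-98). That block changed no other member's call. No fit without both samples of replicate 2 was possible, since dye and treatment then coincide. The members' median change was -0.14 with cyclic loess, 0.60 after scaling to the 75th percentile and 0.77 without any normalization, and from 0.01 to 0.18 when samples were left out. miR-98 stayed positive, from 1.12 to 1.90, or 0.78 to 1.76 with samples left out, at limma adjusted p-values from 0.000811 to 0.809. let-7b also stayed positive in all 24.

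The count of all probes past the threshold, 10, was 30 with the replicate block and dye term, 24 with the replicate block without the dye term and 18 with no dye term. It was 5 with no normalization, 1 with dye loess, 4 with empty spots subtracted, 1 with no filter, 5 with the median of spots and 4 with the deposited table. With samples left out it ranged from 0 to 22. It was 0 without control 2, without forskolin 2 and without replicate 1 (20, 22 and 19 probes at an unadjusted p under 0.05 in limma), 3 without control 3, 12 without control 1 and 22 without replicate 3.

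Small changes turned sign. With cyclic loess let-7a was -0.22, let-7c -0.17 and let-7f -0.14. With the median of detected probes let-7a was -0.016 and let-7d 0.043. With the 75th percentile let-7d was 0.59 and let-7i 0.46, and with no normalization they were 0.76 and 0.63. let-7d was 0.10 with dye loess, 0 with the median of spots and 0.022 with stray spots left out, and let-7g -0.0028 with the deposited table. With samples left out the ranges were -0.16 to 0.11 for let-7d (0.040 without forskolin 1, 0.057 without replicate 1), -0.062 to 0.39 for let-7e (-0.040 without forskolin 3), -0.025 to 0.16 for let-7f, -0.036 to 0.17 for let-7g and -0.41 to 0 for let-7i. The causes were not tested.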
